A study of Mus musculus with 15 samples.

Results

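The 35 genes described here carry out S phase and the copying of DNA, and they are 35 of the 27343 named genes on the array. They were chosen by name from what their products do, with earlier results of these data known, so the choice was not independent of the data. Each was read from the brightest of its probes. They were grouped by role into 13 genes of origin licensing and the helicase, 11 of the primase, polymerases, sliding clamp and clamp loader, 2 of Okazaki fragment processing, 5 of nucleotide supply, and 4 of chromatin behind the fork and repair. Together they had 51 probes on the array, 14 genes having more than 1 probe and 21 a single probe. The probe used had a position on mm9, the build of the array's annotation, for 34 of the 35, the exception being Rfc4.

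RNA was measured on 15 Agilent 1-colour arrays of mouse liver cells. Expandable hepatocytes, which are liver cells that grow in culture, came from 3 mice and were kept for 21 days in expansion medium (eHep) or in differentiation medium (mHep). The labels did not spell out mHep, which was taken as the cells in differentiation medium. Mouse 129S1-No1 had 3 eHep and 3 mHep arrays, mouse C57B6-No1 had 3 and 3, and mouse 129S1-No2 had 1 and 1. The first and the third are of strain 129S1 and the second of strain C57B6, so between 129S1-No1 and C57B6-No1 strain and mouse cannot be told apart. For the mHep sample of 129S1-No2 the source name says eHep and the title mHep, and the title was followed. The last array held primary hepatocytes freshly isolated from C57B6 mice by collagenase perfusion, with no second array of that kind. The labels gave no genotype, age or number of pooled animals, and they did not say whether the arrays of a mouse were separate cultures. P-values within 1 mouse therefore measure only the spread between arrays, which may be technical. Levels are log2 signals from which the array's own 75th percentile was subtracted, so that a level of 0 is that percentile, and they are not compared between genes.

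Replication starts with licensing: the origin recognition complex, of which Orc1 is a subunit, recruits Cdc6 and Cdt1, and these load the ring of Mcm2 to Mcm7 onto DNA. Cdc45, the GINS complex and Mcm10 then turn the ring into a working helicase. Primase and polymerase alpha lay down primers, polymerases delta and epsilon extend them on a clamp of Pcna loaded by replication factor C, and Fen1 and Lig1 join the pieces of the lagging strand. Most of these genes are transcribed at the entry to S phase under E2F factors. Adult hepatocytes are mostly quiescent and re-enter the cycle after injury or in growth medium.

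On the cultured arrays 48.8% to 61.9% of all probes exceeded background clearly, and 36.3% did on the array of primary cells. Of the 35 genes, 33 were above background on all 14 cultured arrays and 25 on all 15. The exceptions in culture were Cdc6, dark on 1 mHep array of 129S1-No1, and Orc1, dark on the mHep arrays of 129S1-No1 and C57B6-No1. On the primary array 10 genes were dark: Cdc6, Cdc45, Gins2, Orc1, Pola1, Pola2, Rrm2, Chaf1a, Uhrf1 and Brca1. The arrays fell into an earlier scan of 5, with the primary cells, mouse 129S1-No2 in both media and the third C57B6-No1 replicate of each medium, and a later scan of 10. The summed level of 9 measured hepatocyte markers, as multiples of the 75th percentile, was 5176 in primary cells, 120 to 567 in mHep and 8.47 to 24.9 in eHep, where Ttr, Cps1 and Cyp2e1 were dark on every array. The label of hepatocyte was thus borne out by these markers in primary cells, and their sum was far lower in eHep. The summed level of 8 biliary or progenitor markers was 308 to 651 in eHep, 201 to 935 in mHep and 5.44 in primary cells.

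The first question was which replication genes differed between the 2 media. Each of the 35 genes had a lower mean in mHep than in eHep, with a median difference of -1.58 on the log2 scale against -0.095 over the 14597 genes tested, of which 56.0% were negative. By limma with mouse as a block, 1 of the 35 genes fell past an adjusted p of 0.05, against 0.452% of all genes tested. That gene was Pole, the catalytic subunit of polymerase epsilon, and 24 of the 35 had an unadjusted p under 0.05, all of them lower in mHep. The share of all genes at an unadjusted p under 0.05 was not computed. Counts at that threshold, here and below, thus have no baseline. The direction was shared by all 3 mice in 32 genes, the exceptions being Prim2, Rpa2 and Dut. Since the arrays read bulk RNA, fewer cells in S phase and less RNA per cell cannot be told apart.

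**Figure D1:**
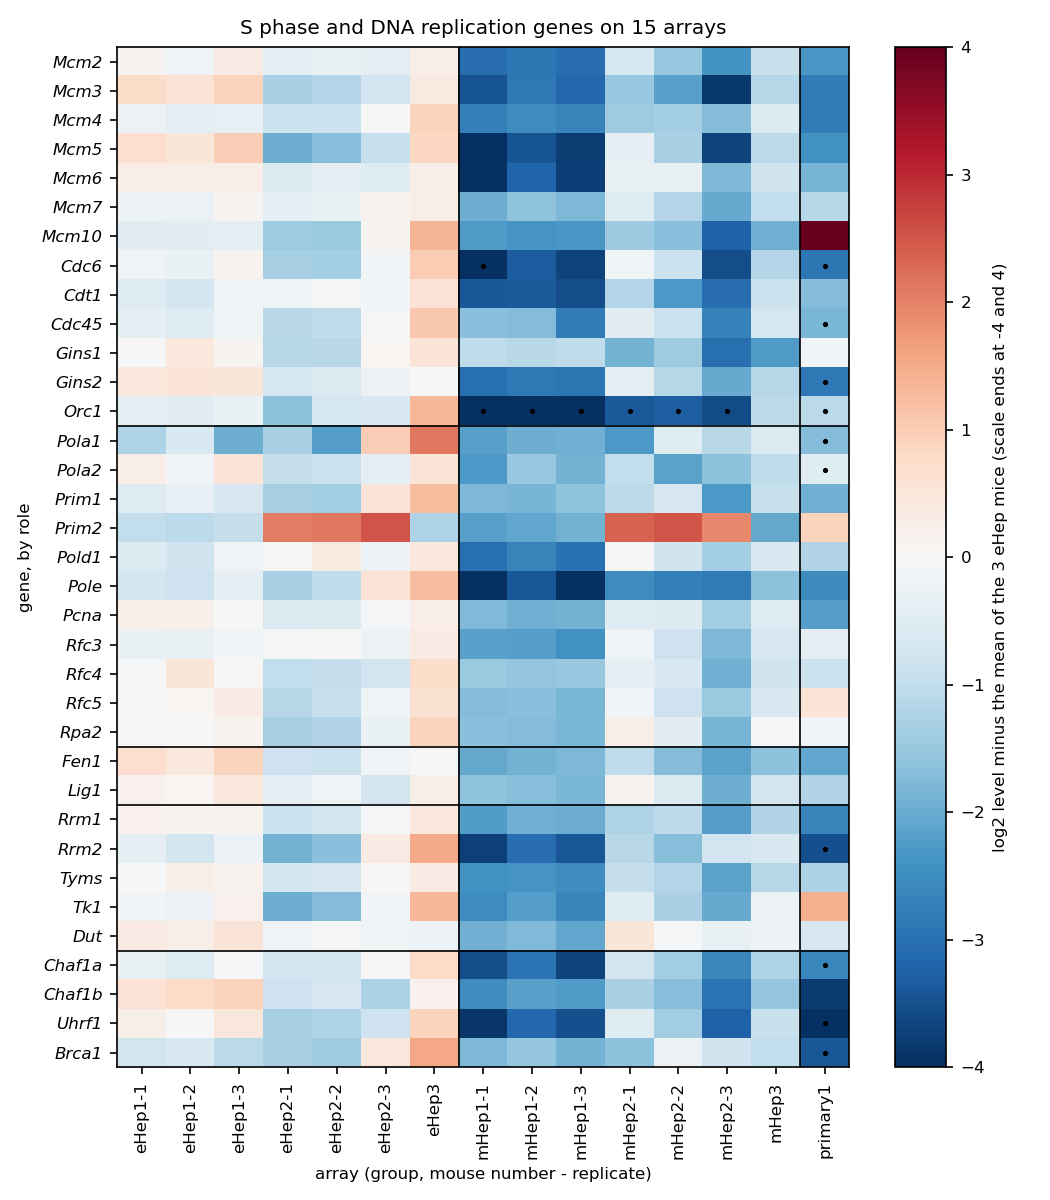
Levels of the 35 genes on 15 arrays, as log2 level minus the mean of the 3 eHep mice, with genes in rows by role and arrays in columns; black dots mark readings not well above background, and the colour scale ends at -4 and 4. The mHep arrays of 129S1-No1 and the replicate 3 array of C57B6-No1 are the lowest of the mHep arrays, and Mcm10 is high on the primary array.

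Origin licensing and helicase genes had a median difference of -1.81, and none of the 13 passed the adjusted threshold while 12 had an unadjusted p under 0.05. Orc1 had the largest fitted difference of the group, which rests on mHep readings under background and has no rank among the others. In eHep its level was -3.04, -3.10 and -2.95 in 129S1-No1, -4.30, -3.37 and -3.28 in C57B6-No1, and -1.35 in 129S1-No2. In mHep it read -7.11, -7.23 and -7.50 in 129S1-No1, -6.04, -5.97 and -6.25 in C57B6-No1, and -3.71 in 129S1-No2, where alone of the mHep arrays the probe was above background. Within each mouse all mHep readings lay below all eHep readings, and across mice 1 eHep array of C57B6-No1 read below the mHep array of 129S1-No2. The fitted difference was -3.02 ± 0.51 (SE, 3 mice), with an adjusted p of 0.0528 by limma, above the threshold of 0.05, and it was -0.83 under the normexp background correction. Because most mHep readings were dark, eHep was at least 3.40-fold higher, and at least 4.18-fold in 129S1-No1 and 1.82-fold in C57B6-No1. Such bounds set the bright group's mean against the lowest signal called above background on each dim array, or the dim reading where that is higher. The Orc1 probe lies at chr4:108284772-108285679 on mm9, a span of 908 bases against the usual 60 of these probes.

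Cdt1, the loader of the Mcm ring, differed by -2.15 ± 0.44 (adjusted p 0.0849 by limma). Mcm7, a ring subunit, had the smallest difference of the group. Its eHep levels were 4.30, 4.25 and 4.62 in 129S1-No1, 4.14, 4.24 and 4.64 in C57B6-No1, and 4.76 in 129S1-No2, and its mHep levels were 2.55, 2.89 and 2.69, then 4.0, 3.34 and 2.48, then 3.52 in the same order. Every mHep array was below every eHep array, with the first replicates of C57B6-No1 closest. The difference was -1.33 ± 0.38 (SE, 3 mice), a 2.51-fold higher eHep mean, with an adjusted p of 0.185 by limma. The other ring subunits Mcm2, Mcm3, Mcm4, Mcm5 and Mcm6 lay between -2.27 and -1.56, Cdc6 at -2.16, Mcm10 at -2.12, and the helicase cofactors Gins1, Gins2 and Cdc45 at -1.81, -1.75 and -1.37.

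Because these genes are known E2F targets, their promoters were searched for E2F letters. RefSeq windows of 300 bases around the first listed start were given for 30 of the 35 genes (build GRCm38.p6), and not for Mcm4, Gins1, Gins2, Prim2 and Pole. Any of the letters TTTGGCGC, TTTCGCGC, TTTGCCGC or TTTCCCGC, on either strand, stood in 10 of the 30 windows (33.3%) and in 626 of 27025 windows of all genes (2.32%). The 10 were those of Mcm3, Mcm5, Mcm6, Mcm7, Cdc6, Cdt1, Orc1, Pola1, Pold1 and Rfc3, 7 of them licensing genes. The letters CCAAT stood in 18 of the 30 windows (60%) and in 37.9% of all. A match is a description of the letters and not a bound site. Of the 7 licensing genes with these letters 4 are printed, and they are not the 4 with the largest differences. Mcm6 differed by -1.77, and Mcm3, at -2.27, is not printed. Mcm10, the gene highest on the primary array against culture, is added, and its window has none of these letters. The 150 bases before the start of each are given 5′ to 3′ on the gene's strand, with E2F letters in capitals. They lie at chr8:75109359-75109508 for Mcm5 (plus strand), chr1:128359706-128359855 for Mcm6 (minus), chr11:98908001-98908150 for Cdc6 (plus), chr4:108579304-108579453 for Orc1 (plus) and chr2:5012792-5012941 for Mcm10 (minus). Overlapping matches on both strands are merged in the capitals of Mcm6, which has 3.
Mcm5: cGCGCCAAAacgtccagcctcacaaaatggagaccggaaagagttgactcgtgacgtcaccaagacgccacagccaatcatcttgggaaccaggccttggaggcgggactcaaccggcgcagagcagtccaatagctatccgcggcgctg
Mcm6: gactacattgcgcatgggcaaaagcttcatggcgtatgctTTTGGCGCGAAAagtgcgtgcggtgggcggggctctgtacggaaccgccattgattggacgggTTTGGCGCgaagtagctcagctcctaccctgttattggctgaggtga
Cdc6: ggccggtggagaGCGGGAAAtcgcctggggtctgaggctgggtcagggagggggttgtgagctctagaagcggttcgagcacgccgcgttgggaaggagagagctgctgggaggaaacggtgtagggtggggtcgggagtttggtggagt
Orc1: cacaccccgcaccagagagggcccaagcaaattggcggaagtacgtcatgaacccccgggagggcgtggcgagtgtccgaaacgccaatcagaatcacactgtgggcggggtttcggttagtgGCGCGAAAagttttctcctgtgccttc
Mcm10: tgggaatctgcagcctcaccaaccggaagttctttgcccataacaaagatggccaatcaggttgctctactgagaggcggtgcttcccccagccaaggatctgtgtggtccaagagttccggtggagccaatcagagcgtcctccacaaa

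The 11 genes of the primase, polymerases, clamp and loader had a median difference of -1.29, from -2.76 to -0.60. Pole read 1.41, 1.32 and 1.77 in eHep of 129S1-No1, 0.83, 1.14 and 2.67 in that of C57B6-No1, and 3.38 in that of 129S1-No2. In mHep it read -2.17, -1.26 and -2.0, then -0.36, -0.58 and -0.67, then 0.49. No mHep array reached the lowest eHep array. The fall was -2.76 ± 0.42 (SE, 3 mice), or 6.78-fold, with an adjusted p of 0.0397 by limma, and the 3 mice gave -3.31 (129S1-No1), -2.08 (C57B6-No1) and -2.89 (129S1-No2). The call was lost, with the direction kept, at an adjusted p of 0.0711 under quantile normalization, 0.0813 with scaling on detected probes, 0.0709 in the authors' value table and 0.103 with the mean of both probes, the other of which was above background on 1 array. The probe used lies at chr5:110766365-110766424 on mm9. No exon annotation of that build was used here.

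Prim2, the large subunit of primase, had the smallest difference of the group, and its level followed the mouse more than the medium. In eHep it read -2.02, -2.08 and -1.99 in 129S1-No1, 1.00, 1.08 and 1.48 in C57B6-No1, and -2.29 in 129S1-No2. In mHep it read -3.21, -3.11 and -2.92, then 1.33, 1.49 and 0.87, then -3.08, and the primary array of C57B6 mice read -0.16. All 6 arrays of C57B6-No1 were thus above the primary array and all 8 arrays of the 129S1 mice below it. The medium difference was -0.60 ± 0.41 (SE, 3 mice; adjusted p 0.565 by limma).

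Pola2, the accessory subunit of polymerase alpha, was the gene whose probes disagreed in sign. Its used probe read -1.98, -2.35 and -1.75 in eHep of 129S1-No1, -3.21, -3.11 and -2.65 in that of C57B6-No1 and -1.73 in that of 129S1-No2, and in mHep -4.55, -3.77 and -4.15, then -3.25, -4.40 and -3.90, then -3.26. Its highest mHep reading lay just below its lowest eHep reading. The difference was -1.50 ± 0.42 (SE, 3 mice; adjusted p 0.175 by limma). The other Pola2 probes, each above background on 1 array, gave -1.20 and 0.98. The remaining genes of the group were Pold1 at -1.41, Prim1 at -1.32, Pola1 at -1.30, Rfc3 at -1.29, Rfc4 at -1.09, Pcna at -1.06, Rfc5 at -1.06 and Rpa2, a subunit of the single-strand binding protein, at -0.82.

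For the joining of lagging-strand pieces, Fen1, the flap nuclease, read 2.23, 1.97 and 2.44 in eHep of 129S1-No1, 0.73, 0.70 and 1.41 in that of C57B6-No1, and 1.53 in that of 129S1-No2. In mHep it read -0.49, -0.32 and -0.22, then 0.56, -0.18 and -0.59, then -0.09, all below the lowest eHep array. The difference was -1.73 ± 0.45 (SE, 3 mice; adjusted p 0.145 by limma). Lig1, DNA ligase I, read 3.12, 3.05 and 3.37, then 2.55, 2.77 and 2.22, then 3.18 in eHep. Its mHep levels were 1.33, 1.24 and 1.12, then 3.11, 2.40 and 1.00, then 2.23, so that the media overlapped in C57B6-No1. The difference of Lig1 was -1.08 ± 0.46 (SE, 3 mice; adjusted p 0.345 by limma).

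Of the 5 nucleotide supply genes none passed the adjusted threshold by limma and 3 had an unadjusted p under 0.05, with a median of -1.58. Rrm2, the S phase subunit of ribonucleotide reductase, had the largest difference, -1.74 ± 0.61 (SE, 3 mice; adjusted p 0.264 by limma). It read 1.22, 0.82 and 1.34 in eHep of 129S1-No1, -0.32, -0.10 and 1.89 in that of C57B6-No1 and 3.09 in that of 129S1-No2, against -2.18, -1.47 and -1.87, then 0.45, -0.14 and 0.79, then 0.95 in mHep. The media were apart in the 129S1 mice and overlapped in C57B6-No1. Dut, which keeps dUTP out of DNA, had the smallest difference, -0.69 ± 0.59 (SE, 3 mice; adjusted p 0.656 by limma). Its eHep levels were 4.20, 4.10 and 4.39, then 3.75, 3.81 and 3.71, then 3.65, and its mHep levels 1.95, 2.11 and 1.81, then 4.38, 3.79 and 3.58, then 3.69. Only the 129S1-No1 arrays separated the media for Dut. Tyms, thymidylate synthase, Rrm1, the large reductase subunit, and Tk1, thymidine kinase, differed by -1.66, -1.58 and -1.31.

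Among the 4 genes of chromatin behind the fork and repair the median was -1.99, with 3 at an unadjusted p under 0.05 and none past the adjusted threshold by limma. Chaf1a, the large subunit of the histone loader CAF-1, read 0.31, 0.08 and 0.53 in eHep of 129S1-No1, -0.18, -0.12 and 0.66 in that of C57B6-No1 and 1.38 in that of 129S1-No2. In mHep it read -2.96, -2.37 and -3.10, then -0.15, -0.75 and -2.0, then -0.65, and the media overlapped by 1 mHep array of C57B6-No1. The difference was -2.07 ± 0.50 (SE, 3 mice; adjusted p 0.123 by limma). Brca1, of homologous repair, read -0.88, -0.74 and -1.22, then -1.45, -1.57 and 0.31, then 1.41 in eHep, and -1.93, -1.69 and -2.04, then -1.78, -0.39 and -0.95, then -1.12 in mHep. Its media overlapped in C57B6-No1, and its difference was -1.20 ± 0.55 (SE, 3 mice; adjusted p 0.376 by limma). Uhrf1, which carries methylation to the new strand, and Chaf1b, the middle subunit of CAF-1, differed by -2.04 and -1.95.

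The size of the difference varied among the mice. In 129S1-No1 all 35 genes were lower in mHep, with a median of -2.33 and a range from -4.49 to -0.74, against -0.38 over all genes. In 129S1-No2, with a single array per medium, 34 were lower, the median was -1.53 and the range -3.29 to 0.03, against 0.072 over all genes. In C57B6-No1, 32 were lower, the median was -0.68 and the range -2.44 (Orc1, dark in mHep) to 0.25, against -0.089 over all genes. The largest fall was that of 129S1-No1 for 29 genes and that of 129S1-No2 for 6 (Mcm10, Cdc45, Gins1, Pola1, Prim1 and Brca1), and the smallest was that of C57B6-No1 for 31. For 9 genes (Mcm2, Mcm7, Cdt1, Pola2, Pole, Fen1, Rrm1, Tyms and Chaf1b) every mHep array was below every eHep array. The share of all genes apart in this way was not computed, so the count of 9 has no baseline here. With any 1 mouse left out, 4 or 5 genes passed: Cdt1, Gins1, Mcm10, Orc1 and Pole without 129S1-No1, Cdc6, Mcm5, Orc1 and Pole without C57B6-No1, and Cdt1, Mcm2, Mcm3, Orc1 and Pole without 129S1-No2. The shares of all genes that fell in these fits were 2.81%, 1.23% and 2.6% in the same order, above the 0.452% with all 3 mice. Taking the 14 arrays as samples, which counts arrays of 1 mouse as independent, 32 genes fell with slide as a block (13.2% of all genes), 30 with scan as a block (26.4%), 25 within the later scan (33.7%) and 23 within the earlier scan (4.83%).

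**Figure D2:**
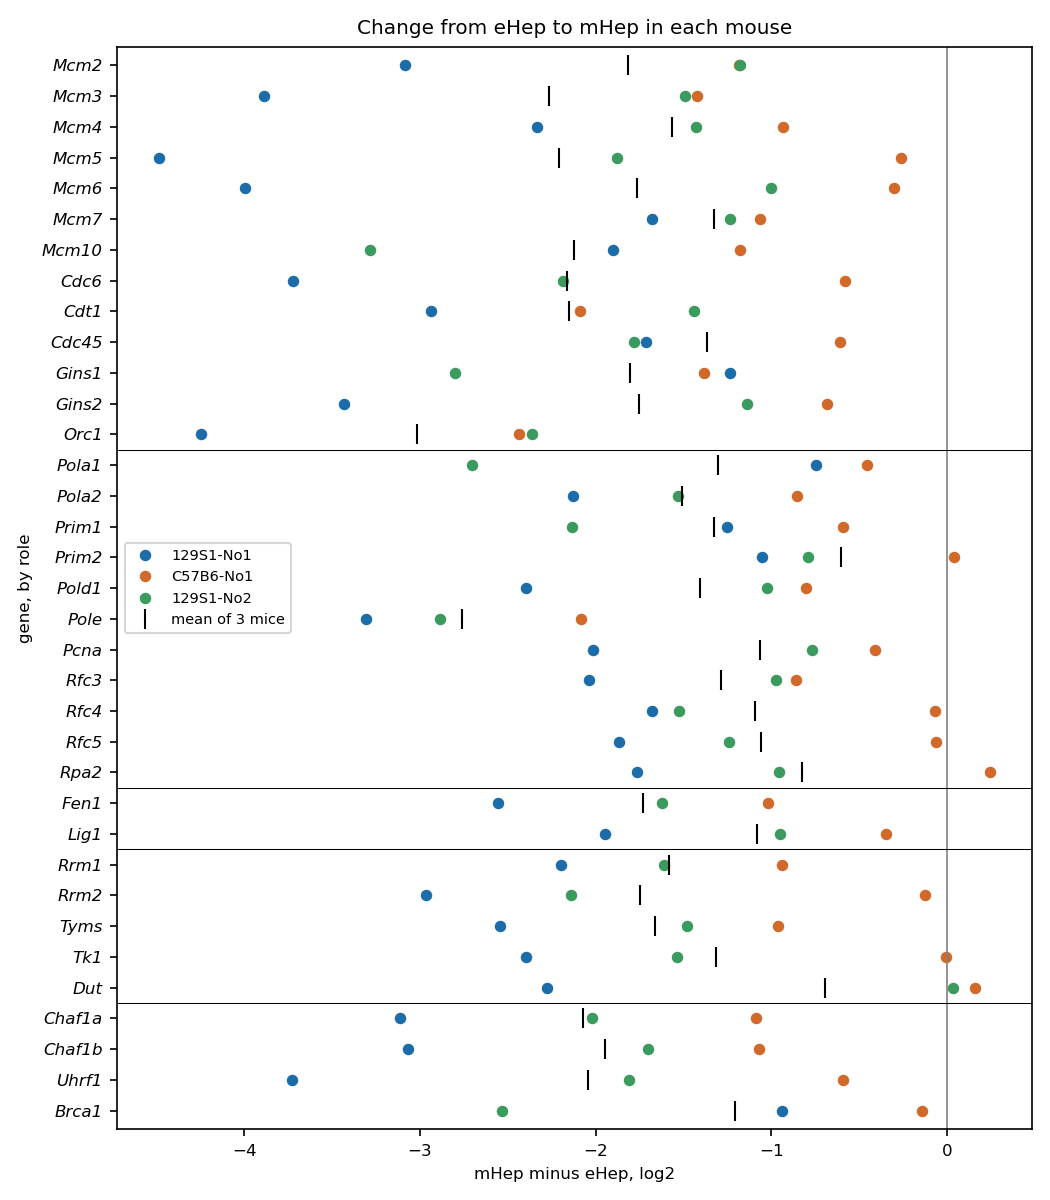
Log2 difference mHep minus eHep of each of the 35 genes in the 3 mice (dots) and its mean (bar), with genes in rows by role. The values of 129S1-No1 lie farthest to the left for 29 genes, and those of C57B6-No1 lie nearest to or past 0 for 31.

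Within single mice the arrays could be tested as samples. In 129S1-No1, 32 of the 35 genes fell by limma, against 27.1% of the 15743 genes tested, the exceptions being Pola1, Prim1 and Brca1. This fit pools the array spread of 129S1-No1 and C57B6-No1, and Prim1 and Brca1 varied more between arrays in C57B6-No1. In 129S1-No1 itself their media did not overlap. Prim1 read 1.86 to 2.19 in eHep and 0.68 to 0.91 in mHep, and Brca1 -1.22 to -0.74 and -2.04 to -1.69. The falls included those of Mcm5 (-4.49, or 22.4-fold), Mcm6 (-4.0, or 15.9-fold), Mcm3 (-3.89, or 14.8-fold) and Uhrf1 (-3.73, or 13.3-fold), while Orc1, dark in mHep, has only its bound. Each medium of this mouse lay on 1 slide, and those slides were linked by 1 eHep array of C57B6-No1 on each. With slide as a block 30 of the 35 fell, against 11.7% of all genes. Marker sums of other cell types moved with the medium in this mouse. From eHep to mHep the mesothelial sum went from 313 to 380 down to 8.70 to 22.6, the biliary or progenitor sum from 563 to 651 down to 201 to 261, and the macrophage sum from 3.30 to 3.84 down to 1.23 to 1.31. Few markers carried some of these sums. Above background on every eHep array of the 3 mice were 2 of the 8 macrophage markers, with Adgre1, Clec4f, Cd163 and Ptprc dark on all of them. The same held for 1 of the 5 mesothelial and 6 of the 8 biliary or progenitor markers. The sums thus do not show that such cells were present, and the part of these markers in the falls was not tested.

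In C57B6-No1, 10 of the 35 genes fell by limma, against 13.4% of all genes tested: Mcm2, Mcm4, Mcm7, Cdt1, Gins1, Orc1, Pole, Fen1, Rrm1 and Tyms. Among the genes above background in both media the falls ran from -2.09 ± 0.39 (SE) for Cdt1 to -0.93 ± 0.25 for Mcm4, and Orc1 has only its bound. The biliary or progenitor sum was 348 to 529 in eHep and 599 to 935 in mHep of this mouse, and its part was not tested. The replicates of this mouse disagreed by scan. In the replicate 3 pair, from the earlier scan, all 35 genes were lower in mHep, with a median of -1.99 and a range from -3.42 to -0.13, against -0.14 over all genes. In replicates 1 and 2, from the later scan, 18 were lower and 17 higher, with a median of -0.094 and a range from -2.17 (Orc1, dark in mHep) to 1.17, against -0.065 over all genes. The fall was larger in the replicate 3 pair for all 35 genes. The replicate 3 eHep array was above the mean of the other eHep arrays of the mouse for 27 genes (median 0.70), and the replicate 3 mHep array was below the other mHep arrays for 32 (median -1.24). Without the replicate 3 pair, 5 genes fell in C57B6-No1 (Mcm4, Cdt1, Orc1, Pole and Chaf1b) and 3 rose, Mcm5 by 1.00, Rpa2 by 1.17 and Tk1 by 0.95, against 16.5% of all genes lower and 14.9% higher. The lower share was thus near that of all genes. With slide as a block, where the change rests on the replicate 3 pair, 26 fell, against 8.70%. The version of the image software changed with the scan, so scan and version cannot be told apart. Whether these, the slide or the cultures set the replicates apart was not tested.

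**Figure D3:**
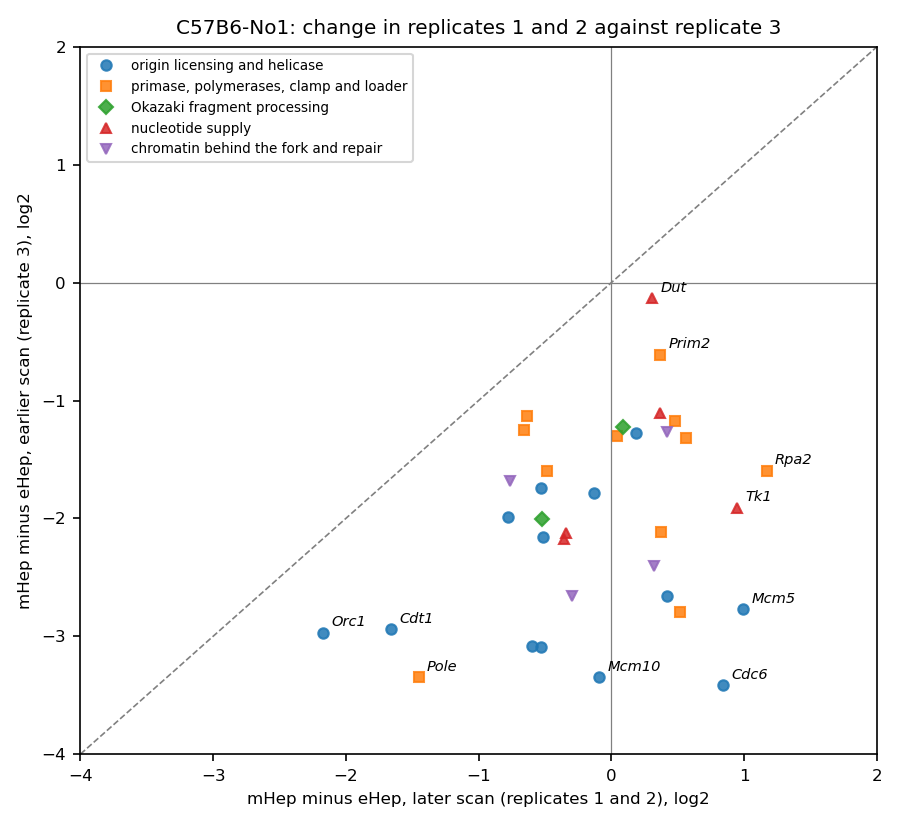
Log2 difference mHep minus eHep in mouse C57B6-No1, replicates 1 and 2 (horizontal axis, later scan) against replicate 3 (vertical axis, earlier scan), 1 point per gene and 1 symbol per role; the dashed line marks equal values. All 35 points lie below the line, and 17 lie to the right of 0.

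The difference of the 2 mice's changes was tested as an interaction. It passed for 20 of the 35 genes, against 16.6% of all genes tested, and for all 20 the change was more negative in 129S1-No1. They were Mcm2, Mcm3, Mcm4, Mcm5, Mcm6, Gins2 and Orc1 of licensing, Prim2, Pold1, Pcna, Rfc4 and Rfc5 of synthesis, Fen1, Rrm2, Tyms, Tk1, Dut, Chaf1a, Chaf1b and Uhrf1. Mcm5 differed by -4.23 ± 0.94 (SE; adjusted p 0.0134 by limma), Mcm6 by -3.70 ± 0.55 (adjusted p 0.00164) and Dut by -2.44 ± 0.32 (adjusted p 0.0008). Mcm5 read 3.01, 2.82 and 3.30 in eHep and -1.75, -1.12 and -1.46 in mHep of 129S1-No1. In C57B6-No1 it read 0.37, 0.62 and 1.39 in eHep and 1.93, 1.04 and -1.38 in mHep. The media stood far apart in the first mouse and overlapped in the second. The count of 20 became 32 without the replicate 3 arrays of C57B6-No1, against 35.9% of all genes, and 5 under the normexp background correction, against 3.91%. It was 3 when slide was blocked, against 8.45%, a share about equal to that of all genes.

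In eHep, 7 of the 35 genes were higher in 129S1-No1 than in C57B6-No1 (Mcm3, Mcm5, Gins2, Pola2, Rfc4, Fen1 and Chaf1b), against 14.9% of all genes tested, and 1, Prim2, was lower, against 12.5%. The difference was 2.25 ± 0.67 (SE) for Mcm5 and 1.68 ± 0.37 for Chaf1b (adjusted p 0.0288 and 0.00691 by limma). In mHep, 18 of the 35 were lower in 129S1-No1, against 15.8%, and none was higher by limma, with 1 at an unadjusted p under 0.05. They were Mcm2, Mcm4, Mcm5, Mcm6, Cdc6, Cdt1, Gins2, Orc1, Prim2, Pold1, Pole, Pcna, Rfc3, Rrm2, Tyms, Dut, Chaf1a and Uhrf1, of which Orc1 was dark in mHep of both mice. Prim2 was lower in 129S1-No1 by -3.22 ± 0.22 (SE) in eHep and -4.31 ± 0.22 in mHep (adjusted p 2.93e-06 and 3.63e-07 by limma), and the other 129S1 mouse, outside this fit, read as low. A gap as low in both media was seen for 104 genes, 0.661% of those tested. Prim2 has 1 probe on the array, at chr1:33510733-33510792 on mm9. Its neighbour Rab23 differed by -0.55 and 0.21 between the mice in eHep and mHep.

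**Figure D4:**
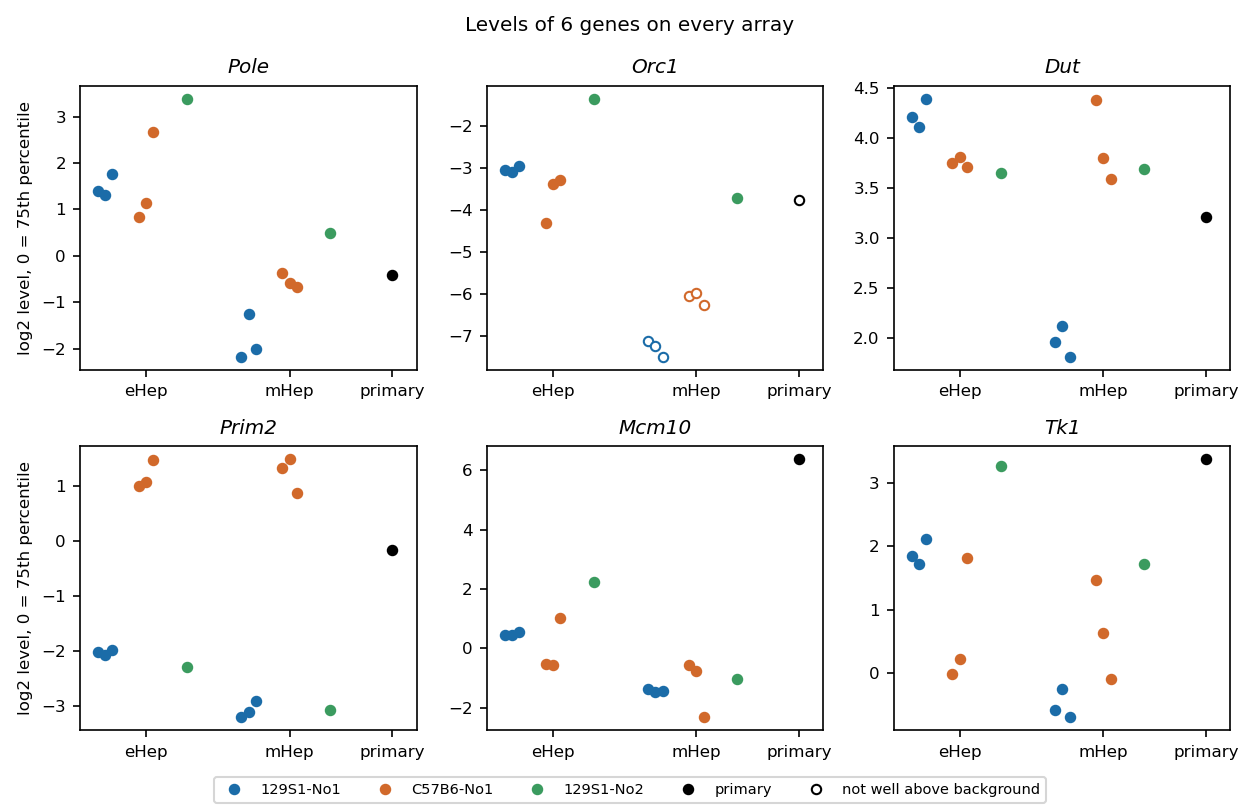
Log2 level of Pole, Orc1, Dut, Prim2, Mcm10 and Tk1 on each of the 15 arrays, by group and coloured by mouse, 1 dot per array and open dots for readings not well above background; each panel has its own vertical scale. Pole is lower in mHep of all 3 mice, Dut in 129S1-No1 alone, Prim2 splits by mouse, and Mcm10 and Tk1 are highest on the primary array.

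Cultured cells were also compared with the single primary array, for which the fit assumes the spread of the cultured means. These comparisons share the eHep or mHep arrays with the medium comparison and share the primary array with each other. The primary array also stood apart in the summed level of erythroid markers, 91.7 against 0.0715 to 0.205 in culture, and of macrophage markers, 10.1 against 0.178 to 3.84. On that array 3 of the 5 measured erythroid and 5 of the 8 macrophage markers were above background, with Cd68, Cd163 and Ptprc dark. The part of such cells in the primary levels was not tested.

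In eHep, 3 of the 35 genes were higher than in primary cells by limma with at least 2-fold, against 6.53% of the 14356 genes tested, and 1 was lower, against 10.6%. The median difference was 1.84 against -0.13 over all genes, and in 27 genes each of the 3 mice was above the primary array. That median is the fitted value of Cdc45, which was dark on the primary array. Setting dark readings to the background limit of their array gave a median of 1.25 against -0.42 over all genes. The 27 include Cdc45 and Orc1, both dark on the primary array with bounds under 1. The share of all genes above in each mouse was not computed. The higher genes were Chaf1b, Uhrf1 and Rrm1. Chaf1b read 4.73, 4.93 and 5.08, then 3.34, 3.5 and 2.88, then 4.32 in eHep against 0.33 in primary cells, a difference of 3.83 ± 0.75 (SE), or 14.2-fold (adjusted p 0.0176 by limma). Rrm1 read 3.31, 3.25 and 3.28, then 2.28, 2.39 and 3.06, then 3.54 against 0.46, a difference of 2.67 ± 0.63 (adjusted p 0.0318 by limma). Every eHep array of Chaf1b and of Rrm1 was more than 1 log2 unit above the primary array. With the mean of both Rrm1 probes, 1 of which was above background on 1 array, the difference of Rrm1 turned to -0.42. That of Chaf1b, whose other probe was likewise above background on 1 array, became 1.34 with the mean of its probes (adjusted p 0.307 by limma), which ended the call.

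Uhrf1 read 2.31, 2.05 and 2.53, then 0.76, 0.85 and 1.23, then 2.98 in eHep and was dark on the primary array, so that eHep was at least 18.3-fold higher (fitted difference 4.83 ± 1.16, adjusted p 0.0338 by limma). Without C57B6-No1 the adjusted p was 0.0516 for Chaf1b, 0.121 for Rrm1 and 0.074 for Uhrf1. The call of Uhrf1 was also lost, with the direction kept, in 2 settings that change dim readings. Its adjusted p by limma was 0.0512 with dark readings set to the background limit and 0.0844 under the normexp background correction. Other genes dark on the primary array had bounds of at least 11.4-fold for Rrm2, 6.51-fold for Gins2, 6.13-fold for Chaf1a, 3.92-fold for Brca1, 2.15-fold for Pola1 and 1.58-fold for Cdc6, none of which passed the test. For Cdc45, Orc1 and Pola2 the bound was under 1 and no fold is given. By role, the median difference was 1.85 for licensing, 0.85 for primase, polymerases, clamp and loader, 1.65 for Fen1 and Lig1, 1.25 for nucleotide supply and 3.62 for chromatin and repair.

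The lower gene was Mcm10, the helicase activator. The primary array read 6.37, against 0.45, 0.44 and 0.55 in eHep of 129S1-No1, -0.54, -0.58 and 1.02 in that of C57B6-No1 and 2.25 in that of 129S1-No2. In mHep it read -1.38, -1.46 and -1.43, then -0.55, -0.76 and -2.32, then -1.04. The primary array was thus more than 4 log2 units above all 14 cultured arrays. The difference was -5.48 ± 0.90 (SE) for eHep, 44.5-fold higher in primary cells (adjusted p 0.00915 by limma), and -7.60 ± 0.90 for mHep, or 193.8-fold (adjusted p 0.00444). Without C57B6-No1 the adjusted p for eHep was 0.0535. A fall as large from primary cells to eHep was seen for 804 genes, 5.60% of those tested. Mcm10 has 1 probe, at chr2:4911845-4911904 on mm9. Of its adjacent genes in the RefSeq order, Ucma was above background on 0 arrays and Optn had an eHep minus primary difference of 0.01. Farther out, the difference was -6.33 for Phyh, the peroxisomal phytanoyl-CoA hydroxylase, and -3.84 for Camk1d. Between these, Ccdc3 was above background on 2 arrays and Gm13194 had no probe.

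The 3 other genes with eHep means below the primary array did not pass: Tk1 at -1.43, Prim2 at -0.88 and Rfc5 at -0.55. Tk1 read 3.37 on the primary array and 1.84, 1.72 and 2.11, then -0.01, 0.22 and 1.82, then 3.25 in eHep, all below it. In RefSeq, Tk1 overlaps Afmid, kynurenine formamidase, whose own probe differed by -5.22. In all, 14 of the 35 genes overlap another RefSeq gene, and for 9 of them the overlapping gene has a probe on the array.

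**Figure D5:**
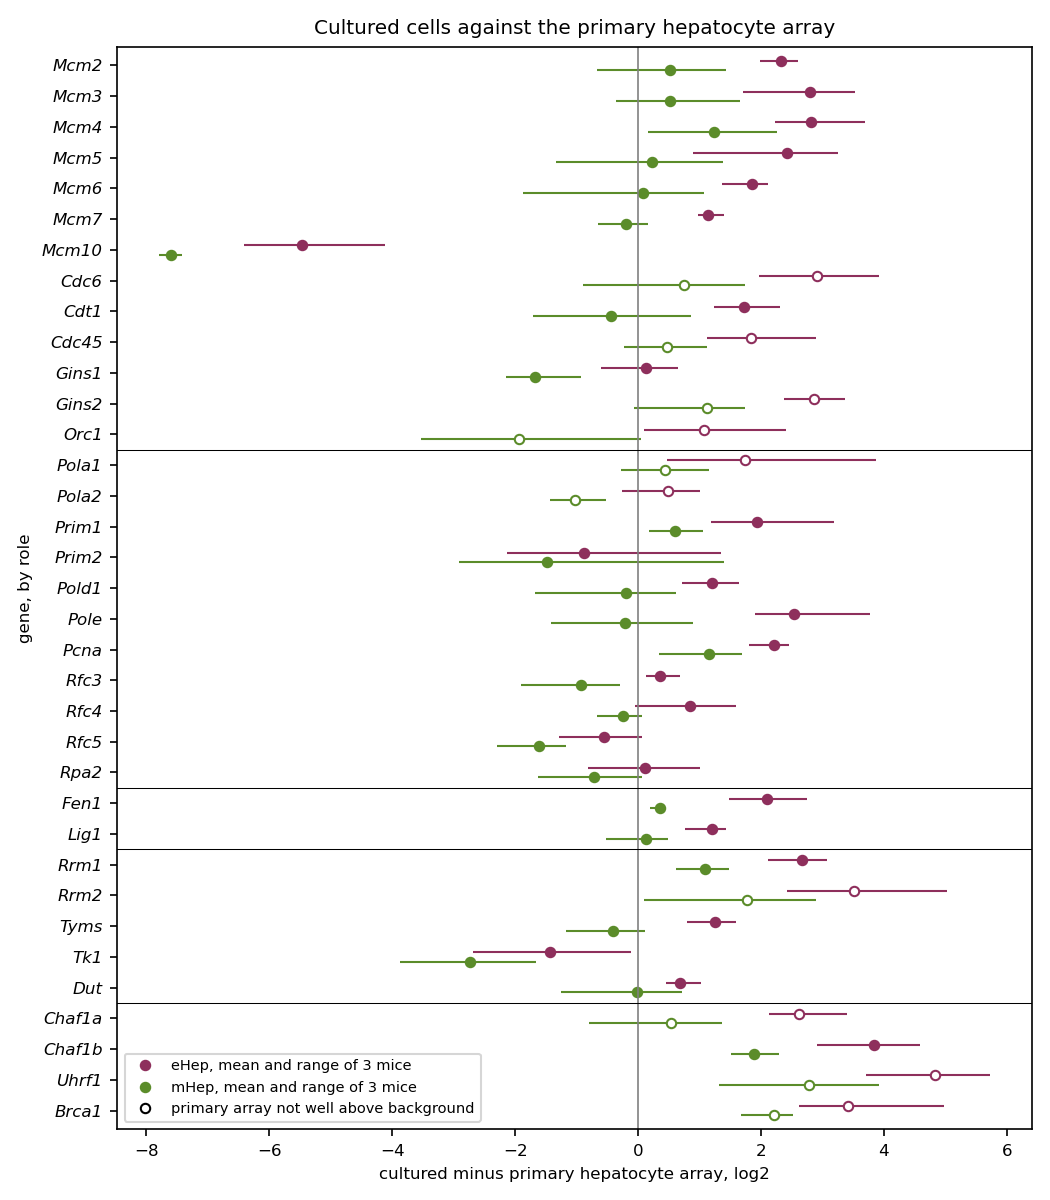
Log2 difference between cultured cells and the primary hepatocyte array for the 35 genes, as the mean (dot) and range (line) of 3 mice in eHep and in mHep, with genes in rows by role and open dots where the primary reading was not well above background. In eHep 31 means lie above 0, in mHep 19, and Mcm10 lies far to the left in both.

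In mHep, none of the 34 genes tested was higher than in primary cells by limma with at least 2-fold, against 4.29% of the 14696 genes tested, with 2 at an unadjusted p under 0.05 and higher. With the C57B6 mouse alone 1 gene, Uhrf1, passed at 3.12, against 13.8% of all genes higher. Since Uhrf1 was dark on the primary array, 3.12 is a fitted value and not a measured difference. With all 3 mice Mcm10 was the 1 gene lower, against 6.31%. Orc1 was not tested, being dark on most of these arrays. The median was 0.18 against -0.29 over all genes, or -0.10 against -0.65 with dark readings set to the background limit. The count of genes above primary cells was 9 (129S1-No1), 22 (C57B6-No1) and 28 (129S1-No2), with medians of -0.79, 0.47 and 0.89. These counts and medians by mouse include Orc1 and the other genes dark on the primary array, whose values are not measured differences. They have no baseline over all genes here. The mHep levels of all 3 mice were above the primary array for Mcm4, Prim1, Pcna, Fen1, Rrm1, Rrm2, Chaf1b, Uhrf1 and Brca1, of which Rrm2, Uhrf1 and Brca1 were dark on that array. They were below it for Mcm10, Gins1, Rfc3, Rfc5 and Tk1. Pola2 also read lower in mHep, but its primary reading of -2.73 was dark, under that array's background limit of -2.12. No direction is therefore given for Pola2. For the genes that did not pass, this does not show that mHep and primary levels were alike.

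Of 100 other genes of the same pathways, 92 were tested between the media, where 83 were lower in mHep and the median was -0.84. By limma 3 fell, against 0.452% of all genes, and none rose, with 36 lower and none higher at an unadjusted p under 0.05. Recql4, a helicase of origin firing and 1 of 36 tested genes of other replication machinery, fell by 2.97 on the log2 scale (adjusted p 0.0316 by limma). Cdca7, a chromatin remodelling cofactor and 1 of 13 tested genes of chromatin replication, fell by 2.69 (adjusted p 0.0316 by limma). E2f7, a repressor of the E2F family and 1 of 12 tested E2F and S phase cyclin genes, fell by 3.36 (adjusted p 0.0279 by limma), and since it was above background on 2 of 7 mHep arrays, eHep was at least 6.75-fold higher.

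None of the 15 tested genes of other nucleotide supply passed by limma, with 4 lower at an unadjusted p under 0.05. Dctd, dCMP deaminase, and Cad, the start of pyrimidine synthesis, had the largest differences there, Dctd with an eHep level at least 3.62-fold higher and Cad with one 3.55-fold higher. None of the 16 tested genes of replication-coupled repair passed either, with 8 lower at an unadjusted p under 0.05. Against primary cells, eHep had 5 of 91 of these genes higher (Fbxo5, Cdca7, Orc2, Topbp1 and Exo1), against 6.53% of all genes, and 1, Shmt1, lower, against 10.6%. Neither share exceeded that of all genes. Within 129S1-No1, 56 of 93 fell, against 27.1% of all genes, and 3 rose, against 17.3%. Within C57B6-No1, 13 fell, against 13.4%, and 2 rose, against 11.8%, so that the share lower there was that of all genes.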

How the data were processed

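The 35 members and the gene lists were chosen with earlier results of these data known. The values used were 1-colour intensities that Agilent's Feature Extraction had corrected for background and spatial trend, per the file headers, without scaling between arrays. Its version was 10.7.1.1 on the 5 arrays of the earlier scan and 10.7.3.1 on the 10 of the later scan. The authors also deposited a table of log2 values whose making is not given in the sources used here; it served as an alternative. Each array held 43379 spots, averaged without outlier spots into 41174 probes, with no saturated spot. Names came from RefSeq accessions or the files' symbols, and for each gene the brightest probe was used.

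Levels are log2 signals minus the array's own 75th percentile. Between media, a gene was tested if at least 2 of 3 mice had it above background on each of their arrays in either medium, and the test was run with limma 3.58.1 (R 4.3.3) on 6 mouse means, with mouse as a block, because the labels name the same mice and the deviations of a mouse in both media correlated at 0.355, 0.528 and 0.530. Against primary cells the same means were set against the single array. Within mice, 12 arrays were fitted by mouse and medium. P-values were adjusted by Benjamini-Hochberg over all genes, with a threshold of 0.05, and against primary cells also a log2 difference of at least 1. The fits were tested on simulated data.

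Values on every array are given for genes that passed between the media, for the largest and smallest difference of each role, for genes whose probes differed in sign, and, chosen after their values were seen, for those that stood out between mice or against primary cells. Of each other pathway list, the genes that passed or else the 2 with the largest differences were to be named; for 1 list these are not reported here. Alternatives by scan, by slide within mice and by background limit were chosen after seeing the data. The number of arrays limits precision. Figures were drawn with matplotlib 3.10.9 in Python 3.11.15.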

Additional observations from a re-analysis of the deposited data

Results flagged for a closer look

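Among the 7 mHep arrays, Orc1 stood apart on that of 129S1-No2, at -3.71, and Fen1 on the first of C57B6-No1, at 0.557, each by a gap large for the range of the group. Chance sets apart about 1 in 20 such groups.

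The change from eHep to mHep differed between 129S1-No1 and C57B6-No1 by the interaction test for 20 of the 35 genes, against 16.6% of all genes. In licensing the difference of the changes was -4.23 for Mcm5, -3.70 for Mcm6, -2.75 for Gins2, -2.46 for Mcm3, -1.90 for Mcm2, -1.81 for Orc1, dark in mHep of both mice, and -1.40 for Mcm4. In synthesis it was -1.80 for Rfc5, -1.61 for Rfc4, -1.61 for Pcna, -1.60 for Pold1, -1.54 for Fen1 and -1.09 for Prim2. In nucleotide supply it was -2.84 for Rrm2, -2.44 for Dut, -2.39 for Tk1 and -1.59 for Tyms, and in chromatin -3.14 for Uhrf1, -2.03 for Chaf1a and -2.0 for Chaf1b. With slide as a block 3 of the 35 genes passed, against 8.45% of all genes. The media of 129S1-No1 lay on separate slides, and the replicate 3 arrays of C57B6-No1 came from the earlier scan.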

How the results depend on the processing

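The direction was kept for 18 settings of the median between the media, -2.22 to -1.19. The 32 genes lower in 129S1-No1 stayed within 23 to 32, against 11.7% to 36.9% of all genes. In what follows, shares in brackets are of all genes tested in the same fit. Between the media 1 gene passed (0.452%), against 2 with no filter (0.819%) and 4 to 5 with a mouse left out (1.23% to 2.81%). The count was 0 under quantile normalization, scaling on detected probes, the authors' table or the mean of probes (0.0617% to 0.384%). With no replicate block 0 passed, and the pairing by mouse is from the labels. Within mice, arrays of the same replicate number in both media correlated at -0.265 to 0.720. The correlations were all negative in 129S1-No1. In C57B6-No1 they were 0.671, -0.265 and 0.720 for replicates 1, 2 and 3, the last being the pair of the earlier scan. A replicate block gave 32 genes in 129S1-No1 (36.9%) and 7 in C57B6-No1 (15.7%). With the 14 arrays as samples 30 passed (21.2%), 32 with slide (13.2%) and 30 with scan as a block (26.4%). The count was 25 in the later (33.7%) and 23 in the earlier scan (4.83%). These fits treat arrays of 1 mouse as samples.

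The 3 genes higher in eHep than primary cells (6.53%) were 7 under quantile normalization (12.4%), 6 with scaling on detected probes (9.29%) and 7 in the authors' table (12.5%). They were 5 with no filter (4.23%), 1 with the mean of probes (4.78%) and 9 with C57B6-No1 alone (17.1%). With dark readings set to the background limit they were 2 (4.3%). With a mouse left out the count was 0 to 4 (1.97% to 7.84%). The median of the members for eHep was 1.14 with the mean of probes and 1.30 to 2.17 with a mouse left out, and that of mHep -0.27 to 0.70. With dark readings set to the background limit these medians were 1.25 for eHep and -0.10 for mHep. For mHep C57B6-No1 alone gave 1 (13.8%). Another scaling moved the median of all genes from -0.13 to 0.34 for eHep and from -0.29 to 0.29 for mHep. In C57B6-No1 the 10 genes (13.4%) became 2 with normexp background (4.51%) and 4 with no filter (5.81%). They became 26 with slide as a block (8.7%) and 5 without the earlier scan (16.5%). Leaving out an array gave 4 (mHep replicate 3, 12.8%) to 17 (mHep replicate 1, 19.3%), and 5 or 6 for the others (8.98% to 15.4%).

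The 20 genes whose change differed (16.6%) became 5 with normexp background (3.91%), 13 with scaling on detected probes (17.9%) and 13 with no filter (8.79%). They became 3 with slide as a block (8.45%), 32 without the earlier scan (35.9%) and 6 to 27 without an array (9.4% to 31.4%). The count was 6 without replicate 1 or 3 of either medium in 129S1-No1. It was 8 to 11 without any other of that mouse's arrays or eHep replicate 1 or 2 or mHep replicate 2 of C57B6-No1. The 8 whose eHep level differed (27.5%) became 5 with normexp (9.7%), quantile or the authors' table (29.1% each) or no filter (12.8%). They became 17 with slide (19.8%) and 22 without the earlier scan (33.6%). Without an array the count was 3 to 10 (18.9% to 24.3%), at 3 or 4 without any eHep array but replicate 3 of C57B6-No1. The 18 of mHep (27.8% in either direction) became 7 with normexp (11.5%), 7 with slide (14.2%) and 31 without the earlier scan (49.2%). Without an array the count was 11 (mHep replicate 3 of 129S1-No1, 19.5%) to 27 (34.8%). Among values called in at least 1 of the compared fits, the sign turned for Prim2 (1.35, eHep against primary, C57B6-No1 alone), Rrm1 (-0.42, mean of probes), in C57B6-No1 without the earlier scan for Mcm5 (1.00) and Tk1 (0.95) and with slide as a block for Rpa2 (-1.60), and for mHep levels between the mice with slide as a block in Cdc6 (0.98), Mcm10 (2.50), Mcm5 (0.71), Pole (0.40), Prim1 (2.44), Tyms (0.41) and Uhrf1 (0.12), and with normexp in Orc1 (0.49). Uncalled values also crossed 0 in several settings, and without the earlier scan 14 genes in all went from below to above 0 in C57B6-No1. The causes were not tested. With 3 mice and 1 primary array, small differences were not detectable.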
